A study of Homo sapiens with 6 samples.

Results

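Mitochondrial fatty acid oxidation was examined through a list of enzymes, carriers, and regulators, made with earlier results of these data known. The list holds 34 genes, matched to the arrays by gene name. Of these, 33 genes had a probe, with 42 probes in all, among the 36337 gene names on the array. ACOT2 had no probe under that name. The samples came from 3 established lines of oral squamous cell carcinoma (OSCC), namely Ca9-22, HSC-3, and KON, each grown in culture and transfected once with a control siRNA (siCtrl) and once with siDLEU1-2, an siRNA against the long noncoding RNA DLEU1. RNA was taken after 72 h in both groups, and 100 ng of each sample was hybridized to 1 one-color Agilent array, giving 6 arrays. Each line and siRNA had 1 array, so the 3 lines served as the replicates of the comparison, and a second DLEU1 siRNA was not on the arrays. A p-value for the siRNA therefore rests on these 3 pairs. In limma, the spread of each probe is drawn toward that of all probes tested.

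Fatty acids enter mitochondria as carnitine esters, which CPT1 makes at the outer membrane, the carrier SLC25A20 moves across the inner membrane, and CPT2 converts back to acyl-CoA. Each round of oxidation then takes an acyl-CoA dehydrogenase, a hydratase, a hydroxyacyl-CoA dehydrogenase, and a thiolase, and for long chains the last steps are carried by the trifunctional protein, made of HADHA and HADHB subunits. Electrons from the acyl-CoA dehydrogenases pass through the flavoproteins ETFA and ETFB and through ETFDH to ubiquinone. PPARA, PPARD, and the coactivator PPARGC1A regulate many of these genes. The list also holds enzymes that work mainly on branched-chain amino acids (ACADSB, ACAD8, HIBCH, and HSD17B10) and enzymes of peroxisomes (ACAA1 and EHHADH).

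An siRNA can lower RNAs other than its target when bases 2 to 8 of its antisense strand, the seed, pair with them. The strands of siDLEU1-2 and the 30 bases of the HADHB and ACAD9 probes around the match are shown because these are the probes of the pathway that hold the complement of the seed. Capitals mark the seed in the antisense strand and its complement in the probes.
siDLEU1-2 sense: cagggguuaucgcacuuaagc
siDLEU1-2 antisense: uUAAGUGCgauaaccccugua
HADHB site: ccttctattaaatactttGCACTTAagcct
ACAD9 site: tcatttaaactagaagcagagGCACTTAaa
The HADHB site lies at chr2:26512943-26512972 and the ACAD9 site at chr3:128631870-128631899, both on the plus strand of hg19, the build that the array files use. The match takes bases 49 to 55 of the 60-base HADHB probe and bases 52 to 58 of the ACAD9 probe. At both sites the base after the match also pairs with base 1 of the antisense strand, which gives 8 contiguous pairs, and 11 of the 21 antisense bases pair in all. The other 35 probes kept, described next, do not hold these 7 bases. A probe shows 60 bases of a transcript, and the rest of each transcript was not searched.

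Signals are given as log2 of the processed signal minus the 75th percentile of the array, and a difference as log2 fold change of siDLEU1-2 over siCtrl within a line. Signals were not compared between probes. A probe was kept if, in every line, the siCtrl array or the siDLEU1-2 array or both gave a signal well above background, which left 37 probes of 29 genes, and all 37 were above background on all 6 arrays. As a check of the knockdown, DLEU1 itself differed by -4.10 (HSC-3), -3.63 (KON), and -3.44 (Ca9-22) on the log2 scale, and its limma adjusted p was 0.0227. All 8 squamous epithelial markers examined were above background on every array, while of 10 markers of leukocytes, endothelium, and fibroblasts 2 were (CD68 and COL1A1) and COL1A2 and PDGFRB were on no array. The endothelial markers VWF and CDH5 were above background on 5 of the 6 arrays, and PTPRC, CD3E, PECAM1, and DCN on at most 2. In such bulk RNA, fewer cells that express a gene and less of its RNA per cell cannot be told apart.

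Knockdown was accompanied by large falls of 3 genes of the pathway, HADHB, ECI2, and ACAD9, in all 3 lines, and by a rise of ACAA1. The signals of 4 probes (2 of HADHB, 1 of ECI2, and 1 of ACAD9) were over 2-fold lower with siDLEU1-2 in every line, against 2.08% of all 19956 probes kept. No probe was over 2-fold higher in every line, against a background of 2.08% in that direction. With limma, cell line as a block, and adjustment over all probes kept, 5 of the 37 probes (13.5%) were called lower, those 4 and the other ACAD9 probe, where 4.52% of all probes were. The ACAA1 probe was called higher (2.70% of the 37), where 3.98% of all probes were. Within single lines, 8 probes were over 2-fold lower in HSC-3 (background 6.68%), 6 in KON (7.29%), and 4 in Ca9-22 (6.46%), and none was over 2-fold higher in HSC-3, KON, or Ca9-22, where the backgrounds were 7.53%, 7.3%, and 6.56%.

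**Figure D1:**
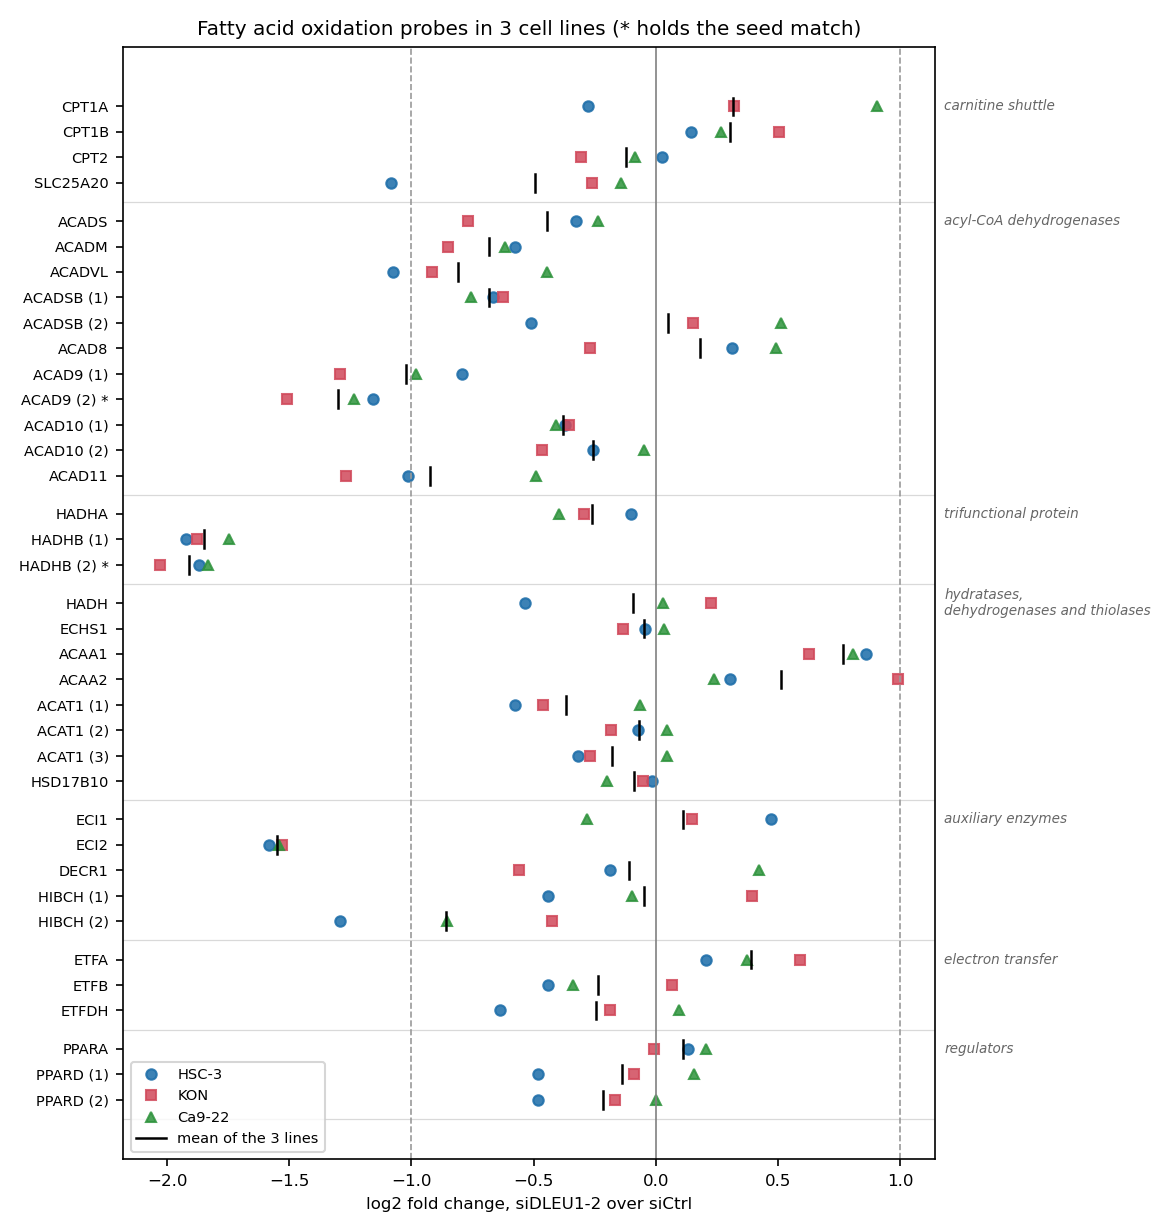
Log2 fold change of siDLEU1-2 over siCtrl (horizontal axis) of the 37 probes kept, 1 row per probe, in groups by role. Circles, squares, and triangles are HSC-3, KON, and Ca9-22, black bars are the mean of the 3 lines, dashed lines mark 2-fold, and asterisks mark the probes with the seed match. Both HADHB probes, ECI2, and the ACAD9 probe with the match lie left of the lower dashed line in all 3 lines. The other probes have means nearer to 0, although some, such as ACAD11, cross that line in HSC-3, KON, or both.

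Over all members, those called included, the mean over the 3 lines lay below 0 more often than above it. It was below 0 for 28 of the 37 probes (75.7%) and for 49.2% of all probes kept. The difference was negative in every line for 17 members and positive in every line for 4, where 26.7% and 26.9% of all probes were. The median log2 fold change was -0.22 for the members and 0.0073 for all probes. By line (HSC-3, KON, and Ca9-22), the medians of the members were -0.44, -0.27, and -0.086, so the shift in HSC-3 was the largest of the 3, and without HSC-3 the median over lines was -0.13. Without the 6 probes called, 23 of the remaining 31 (74.2%) had a mean below 0, 12 were lower in every line, 3 were higher in every line, and the median was -0.14. Members of one pathway are not independent of each other, and these shares are descriptions.

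HADHB encodes the thiolase subunit of the trifunctional protein. On its probe with the seed match (A_23_P79703, chr2:26512913-26512972), the signal went from 5.44 with siCtrl to 3.57 with siDLEU1-2 in HSC-3, from 4.83 to 2.81 in KON, and from 5.32 to 3.49 in Ca9-22. All 3 siDLEU1-2 signals lay below all 3 siCtrl signals. The mean log2 fold change was -1.91 ± 0.105 (SD over 3 lines), a 3.76-fold lower signal, with a limma adjusted p of 0.0227. The other HADHB probe (A_21_P0013806, chr2:26502925-26505713) covers 2789 genomic bases with 60 bases of probe, so it spans an exon junction, and it does not hold the match. Its signal went from 2.96 to 1.04 in HSC-3, from 2.45 to 0.58 in KON, and from 2.91 to 1.17 in Ca9-22, again without overlap. The mean was -1.85 ± 0.0922, a 3.60-fold lower signal, with a limma adjusted p of 0.0227. The log2 fold change on the seed-match probe minus that on the other was 0.05 (HSC-3), -0.15 (KON), and -0.09 (Ca9-22), so neither probe was lower throughout.

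HADHA encodes the partner subunit, with hydratase and hydroxyacyl-CoA dehydrogenase activity, and its gene starts 307 bases from that of HADHB on the opposite strand (RefSeq, GRCh38.p14). Its probe holds no seed match. In HSC-3 the signal was 3.31 with siCtrl and 3.21 with siDLEU1-2. In KON it was 3.04 and 2.75, and in Ca9-22 it was 2.95 and 2.56. The ranges of the siRNA groups overlapped. The mean log2 fold change was -0.26 ± 0.149 and did not pass the test (limma adjusted p = 0.293). Within each line, the HADHB difference on the seed-match probe was lower than that of HADHA by 1.77, 1.73, and 1.44 on the log2 scale in HSC-3, KON, and Ca9-22, and on the junction probe by 1.82, 1.58, and 1.35. The difference between the subunits had no test of its own across these 3 pairs.

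ACAD9 encodes an acyl-CoA dehydrogenase that is also an assembly factor of respiratory complex I. On its probe with the seed match (A_23_P132405, chr3:128631840-128631899), the signal went from 4.46 to 3.30 in HSC-3, from 3.97 to 2.45 in KON, and from 4.27 to 3.03 in Ca9-22. The siRNA groups did not overlap. The mean log2 fold change was -1.30 ± 0.186, a 2.47-fold lower signal, with a limma adjusted p of 0.0257. On the other probe (A_24_P191656, chr3:128629616-128631368), which spans a junction and holds no match, the signal went from 1.77 to 0.98 in HSC-3, from 1.32 to 0.03 in KON, and from 1.49 to 0.51 in Ca9-22. These groups did not overlap either, and the mean was -1.02 ± 0.251 (limma adjusted p = 0.0359). In HSC-3 and Ca9-22 this probe was less than 2-fold lower, and its difference was smaller than that of the seed-match probe in every line, by 0.28 ± 0.0743 on average.

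ECI2 encodes an enoyl-CoA isomerase of mitochondria and peroxisomes, which moves the double bonds of unsaturated fatty acids into the position that the cycle can use. Its probe (A_23_P156852, chr6:4116123-4116182, minus strand) holds no seed match. The signal went from 5.61 to 4.03 in HSC-3, from 3.68 to 2.15 in KON, and from 3.92 to 2.38 in Ca9-22. The HSC-3 signal with siDLEU1-2 was above those of KON and Ca9-22 with siCtrl, so the siRNA groups overlapped although every line was lower. The mean log2 fold change was -1.55 ± 0.0279, a 2.93-fold lower signal, with a limma adjusted p of 0.0231. ECI1, the related mitochondrial isomerase, had differences of 0.47, 0.15, and -0.28 in HSC-3, KON, and Ca9-22 and did not pass the test (limma adjusted p = 0.743).

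ACAA1, the peroxisomal thiolase, was the member called higher. Its signal went from 3.84 to 4.70 in HSC-3, from 3.98 to 4.61 in KON, and from 2.82 to 3.63 in Ca9-22. All lines were higher, and the groups overlapped because Ca9-22 was lower than the other lines with both siRNAs. The mean log2 fold change was 0.76 ± 0.122, a 1.70-fold higher signal, with a limma adjusted p of 0.0459. Its call was lost when arrays were centered on the median (adjusted p = 0.0575) or quantile normalized (0.0566). ACAA2, the mitochondrial thiolase, had differences of 0.31, 0.99, and 0.24 and did not pass the test (limma adjusted p = 0.183).

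Calls were lost over the whole array, not among the members alone, when a line or the block was left out. Of all 19956 probes, limma called 0 without HSC-3, 0 without KON, 244 (1.22%) without Ca9-22, and 0 without the block. Without Ca9-22 both HADHB probes were still called, and without HSC-3 (adjusted p = 0.0808) or KON (0.103) they were not. ECI2, both ACAD9 probes, and ACAA1 were not called without HSC-3, without KON, or without Ca9-22. Without the block, the adjusted p was 0.272 for HADHB, 0.794 for ECI2, and 0.409 and 0.591 for the ACAD9 probes. With no filter on dim probes, no probe of the array was called, although 11 of the 42 member probes (26.2%) and 13.5% of all probes had an unadjusted p under 0.05 in limma. With the stricter filter of probes above background on all 6 arrays, 9 members were called lower, the same 5 and ACAD11, ACADM, ACADSB, and ACADVL, and the share of all probes called lower was also larger, at 5.94%. The fold changes of HADHB, ECI2, ACAD9, and ACAA1 kept their direction under every alternative tried.

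**Figure D2:**
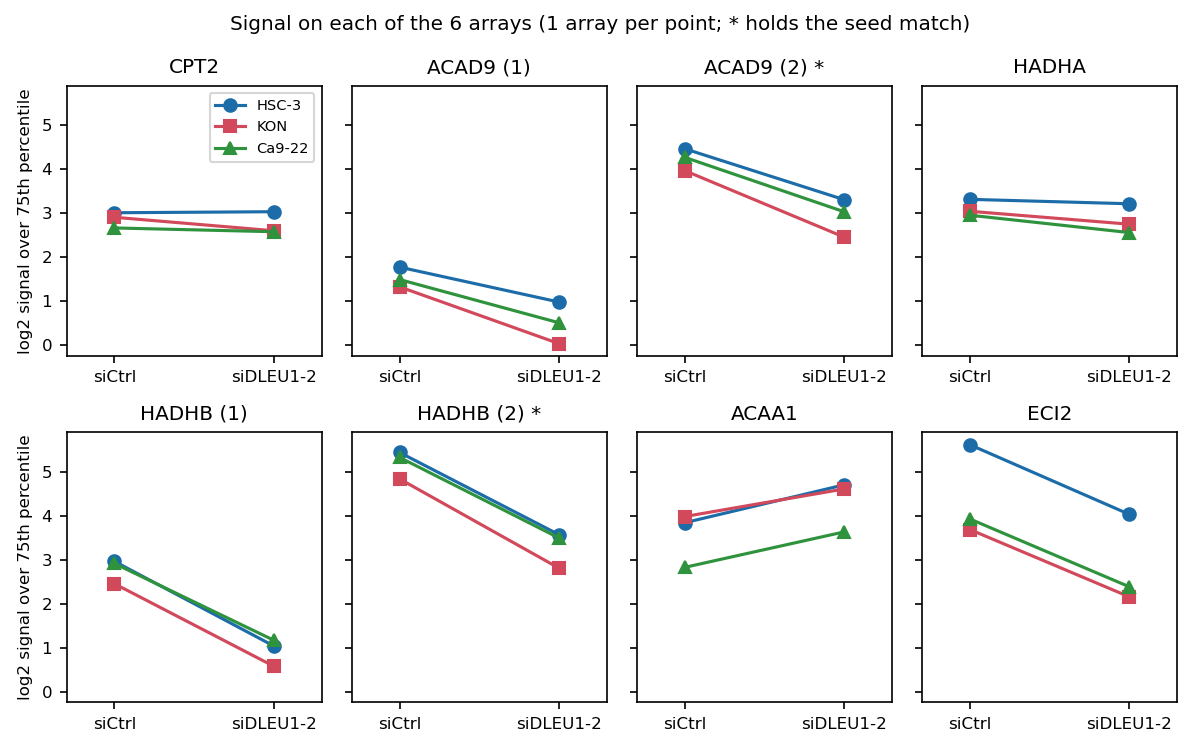
Signal (vertical axis, log2 of the processed signal minus the 75th percentile of the array) with siCtrl and siDLEU1-2 on each of the 6 arrays for CPT2, HADHA, ECI2, ACAA1, and both probes of ACAD9 and HADHB. Each point is 1 array, each line joins the arrays of 1 cell line, and asterisks mark the probes with the seed match. The lines of HADHB and ECI2 fall in parallel in HSC-3, KON, and Ca9-22, whereas those of HADHA and CPT2 are nearly flat.

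The probes with the seed match stood at the low end of the pathway, with their sister probes and ECI2 beside them. Ordered by mean log2 fold change, the seed-match probe of HADHB came first of the 37, its other probe came next, ECI2 was at rank 3, and the ACAD9 probes were at ranks 4 and 5. In HSC-3, KON, and Ca9-22, the seed-match probes had means of -1.51, -1.77, and -1.53, and the other 35 probes had medians of -0.37, -0.26, and -0.06. Taken on each probe's mean over the lines, the seed-match probes had a mean of -1.61 and the other 35 a median of -0.18, a difference of -1.43 on the log2 scale. The 33 probes of the remaining genes had a median of -0.14 and ran from -1.55 for ECI2 to 0.76 for ACAA1. The ACAA1 probe, with the higher signal, holds 6 of the 7 bases of the match, without the one that pairs with base 2 of the antisense strand.

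Across the whole array, 57 probes kept hold the seed match, and the HADHB probe was at rank 7 and the ACAD9 probe at rank 14 among them by mean log2 fold change. Of the 57, 12 (21.1%) were over 2-fold lower in all 3 lines, whereas 404 of the 19899 probes without the match (2.03%) were. The median log2 fold change was -0.58 with the match and 0.0078 without. In limma, 19 of the 57 (33.3%) were called lower, against 4.44% of the probes without the match, and 4 (7.02%) were called higher, against 3.98%. On the array as a whole, 169 probes had a lower mean than the HADHB seed-match probe, 187 than the other HADHB probe, and 334 than ECI2. The part of the seed match in the fall of HADHB and ACAD9 was not tested, as the arrays hold no second DLEU1 siRNA.

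Before the cycle, none of the 4 probes of the carnitine shuttle passed the test. The CPT1A signal was 1.03 with siCtrl and 0.75 with siDLEU1-2 in HSC-3. In KON it was 1.39 and 1.71, and in Ca9-22 it was -1.31 and -0.41. Its difference was below 0 in HSC-3 and above 0 in KON and Ca9-22, and the mean of 0.31 ± 0.591 did not pass the test (limma adjusted p = 0.472). CPT2 had signals of 3.01 and 3.03 (HSC-3), 2.91 and 2.60 (KON), and 2.66 and 2.58 (Ca9-22), a mean of -0.12 ± 0.168 (limma adjusted p = 0.619). The muscle form CPT1B had differences of 0.14, 0.50, and 0.27 (limma adjusted p = 0.253). SLC25A20 was at -1.08 in HSC-3 and at -0.26 and -0.14 in KON and Ca9-22, and did not pass the test (limma adjusted p = 0.241).

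The acyl-CoA dehydrogenases start each round, and 7 of their 9 probes that were not called had a mean below 0. Of all 11 probes, 9 were lower in every line, as 26.7% of all probes kept were. The calls were 2, both of ACAD9 and both lower, where 4.52% of all probes were called lower. The median of the group was -0.68. ACAD11 had differences of -1.01, -1.27, and -0.49 in HSC-3, KON, and Ca9-22 (limma adjusted p = 0.0598). ACADVL, for very long chains, had -1.07, -0.92, and -0.44 (0.0631), and ACADM, for medium chains, had -0.58, -0.85, and -0.62 (0.0567). These lay just outside the threshold, as did the first ACADSB probe with -0.66, -0.63, and -0.76 (0.051). The second ACADSB probe disagreed with it, with -0.51, 0.15, and 0.51 (0.912), and these probes also ordered the cell lines differently. ACADS, for short chains, had a mean of -0.44, the ACAD10 probes had -0.38 and -0.26, and ACAD8, for valine, had 0.18, none of them called.

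Of the other steps after the dehydrogenases, apart from HADHB, ECI2, and ACAA1, no probe passed the test. ECHS1, the short-chain hydratase, had a mean of -0.05, HADH -0.09, and HSD17B10 -0.09. The 3 ACAT1 probes, for the thiolase of ketone body and isoleucine breakdown, had means of -0.37, -0.07, and -0.18, and none passed the test. Among the auxiliary enzymes, DECR1, the dienoyl-CoA reductase, had -0.19, -0.56, and 0.42 in HSC-3, KON, and Ca9-22. HIBCH, the hydrolase of valine breakdown, had a mean of -0.05 on one probe and -0.86 on the probe assigned to its other transcript (limma adjusted p = 0.0758), so its probes disagreed. Of the electron carriers, ETFA had a mean of 0.39 and was higher in every line, ETFB had -0.24, and ETFDH had -0.24, none of them called.

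No probe of a regulator passed the test. PPARA gave -0.17 with siCtrl and -0.04 with siDLEU1-2 in HSC-3. Its KON signals were -1.36 and -1.37 and its Ca9-22 signals -1.18 and -0.97, a mean difference of 0.11 ± 0.109 (limma adjusted p = 0.637). A second PPARA probe was well above background on the KON siCtrl array alone, with -2.65 there against -3.31 with siDLEU1-2. In HSC-3 that probe was at -3.21 and -3.41, and in Ca9-22 at -3.33 and -4.62. One PPARD probe had signals of 3.59 and 3.11 (HSC-3), 2.29 and 2.13 (KON), and 2.73 and 2.73 (Ca9-22), a mean difference of -0.22 ± 0.246 (limma adjusted p = 0.427). The other PPARD probe had -1.97 and -2.45 (HSC-3), -2.99 and -3.08 (KON), and -3.25 and -3.09 (Ca9-22), a mean difference of -0.14 ± 0.321 (0.651). PPARGC1A was well above background in KON alone, at -1.40 with siCtrl and -3.13 with siDLEU1-2, and the arrays of HSC-3 (-5.57 and -5.45) and Ca9-22 (-5.43 and -5.26) gave bounds only. Its KON difference of -1.72 has no replicate.

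Levels of the members differed between the cell lines about as often as those of other probes. In the limma F-test of the cell line, 20 of the 37 probes (54.1%) were called, against 53.8% of all probes. Within a line, the replicates of this test are the siCtrl array and the siDLEU1-2 array, with no repeat culture. Among the 37 probes tested, ACAA2 had the widest range, with means over both siRNAs of -2.06 (HSC-3), -0.92 (KON), and 1.84 (Ca9-22), a 14.8-fold range (adjusted p = 0.00538). CPT1A was lower in Ca9-22 (-0.86) than in HSC-3 (0.89) and KON (1.55), a 5.33-fold range (0.0111). DECR1 was lower in KON (1.12) than in HSC-3 (2.97) and Ca9-22 (3.44), and HADH had its lowest level in KON too (3.04, against 4.09 and 4.90). ECI2 was higher in HSC-3 (4.82) than in KON (2.92) and Ca9-22 (3.15), a 3.73-fold range (0.00658). The HADHB levels were closer together, with a 1.60-fold range on the seed-match probe (0.0426) and a 1.44-fold range on the other (0.076). Without HSC-3, KON, or Ca9-22, 11, 6, or 10 of the 37 probes were called, where 27.6%, 30.8%, or 29.8% of all probes were. Without KON the share of the members was thus below that of all probes.

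Of the members left out as dim, ACOT1, EHHADH, and PPARGC1A were well above background in some lines alone, and these differences were not tested. ACOT1, an acyl-CoA thioesterase, had signals of 4.63 and 4.70 in HSC-3 and 4.0 and 3.34 in KON, and was not well above background in Ca9-22, where it measured -5.22 and -5.06. Taking the dimmest signal well above background on each Ca9-22 array as its floor there, ACOT1 was at least 261-fold higher in HSC-3 and at least 131-fold higher in KON than in Ca9-22. ACOT2 is a close paralog of ACOT1, and whether the probe separates them was not determined. EHHADH, the bifunctional enzyme of peroxisomes, was well above background in Ca9-22 alone, where its signal was at least 2.45-fold that of HSC-3 and at least 2.70-fold that of KON. By the same floor, and as a mean over both siRNAs, PPARGC1A was at least 2.50-fold higher in KON than in HSC-3 and at least 2.14-fold higher than in Ca9-22. With siDLEU1-2 alone, its KON signal of -3.13 was near the siDLEU1-2 floors of HSC-3 (-3.59) and Ca9-22 (-3.29). ACADL, for long chains, was well above background on none of the 6 arrays.

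**Figure D3:**
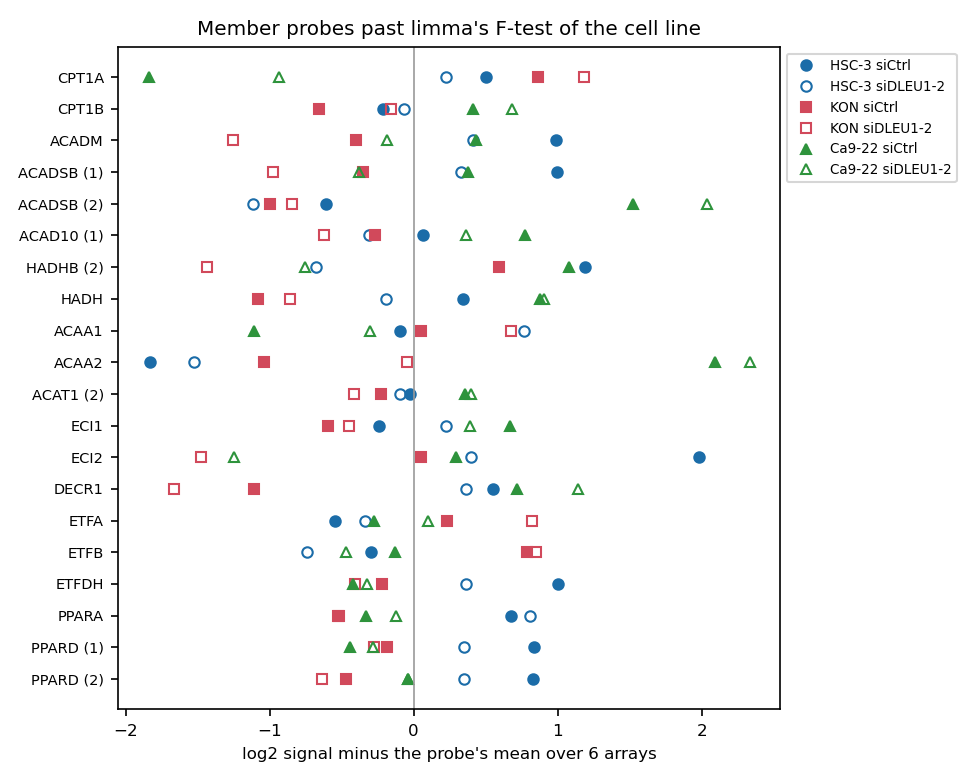
Signal of the 20 probes called in the limma F-test of the cell line, as log2 signal minus the mean of the probe over 6 arrays (horizontal axis). Colors and shapes mark HSC-3, KON, and Ca9-22, with filled symbols for siCtrl and open symbols for siDLEU1-2. ACAA2 is highest in Ca9-22, CPT1A is lowest in Ca9-22, and for ECI2 the open symbol lies below the filled one of the same line in all 3 lines.

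Around the pathway, 108 further genes in 6 lists were examined, covering fatty acid entry, peroxisomal oxidation, branched-chain and propionyl-CoA oxidation, ketone body enzymes, regulators, and the citrate cycle with ubiquinone synthesis. They had 134 probes kept from 97 genes, and no probe among them holds the seed match. Their median log2 fold change was -0.18, close to the -0.22 of the members. Over 2-fold lower in every line were 2 probes (1.49%), of CROT and SDHA, below the 2.08% of all probes, and none was over 2-fold higher in every line, where 2.08% of all probes were. By limma, 10 (7.46%) were called lower, against 4.52% of all probes, and 1 (0.746%) higher, against 3.98%. With the stricter filter, 11 were called lower and 4 higher, where 5.94% and 5.48% of all probes were. With normexp background correction, 13 were called lower and 6 higher, where 2308 of all 19956 probes were called in either direction. Limma called none of the 134 without HSC-3, KON, Ca9-22, or the block, settings under which it called at most 1.22% of all probes.

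SDHA, the flavoprotein subunit of succinate dehydrogenase, which like ETFDH passes electrons to ubiquinone, fell on all 4 of its probes, with means of -1.18 ± 0.226, -1.11 ± 0.149, -1.03 ± 0.221, and -0.97 ± 0.134 (limma adjusted p from 0.0295 to 0.0337). Copies of SDHA that are nearly identical exist as pseudogenes, so the transcripts read by these probes are uncertain. CROT, which makes carnitine esters of medium chains in peroxisomes, was called lower on both probes (limma adjusted p = 0.0346 and 0.0493), but neither was well above background with siDLEU1-2 in KON or Ca9-22, where only bounds hold. The first probe was 3.54-fold lower in HSC-3, at least 2.84-fold lower in KON, and at least 2.11-fold lower in Ca9-22. For the second probe these values were 1.88-fold, at least 1.24-fold, and at least 1.45-fold. Under normexp background correction neither CROT nor SDHA was over 2-fold lower in every line. MCCC1, a subunit of the carboxylase of leucine breakdown, fell by 1.12 (limma adjusted p = 0.0315). Both probes of the PPAR coactivator MED1 fell, by 0.97 and 0.87, as did 1 of the 2 PPARGC1B probes, by 0.78. The other PPARGC1B probe had a mean of -0.81 and was not called (limma adjusted p = 0.0538). TFAM, a factor for the start of mitochondrial transcription that also packs mitochondrial DNA, rose by 0.83 on 1 of its 2 probes (limma adjusted p = 0.043), a call that quantile normalization lost. The other TFAM probe had a mean of 0.72 and was not called (0.129).

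**Figure D4:**
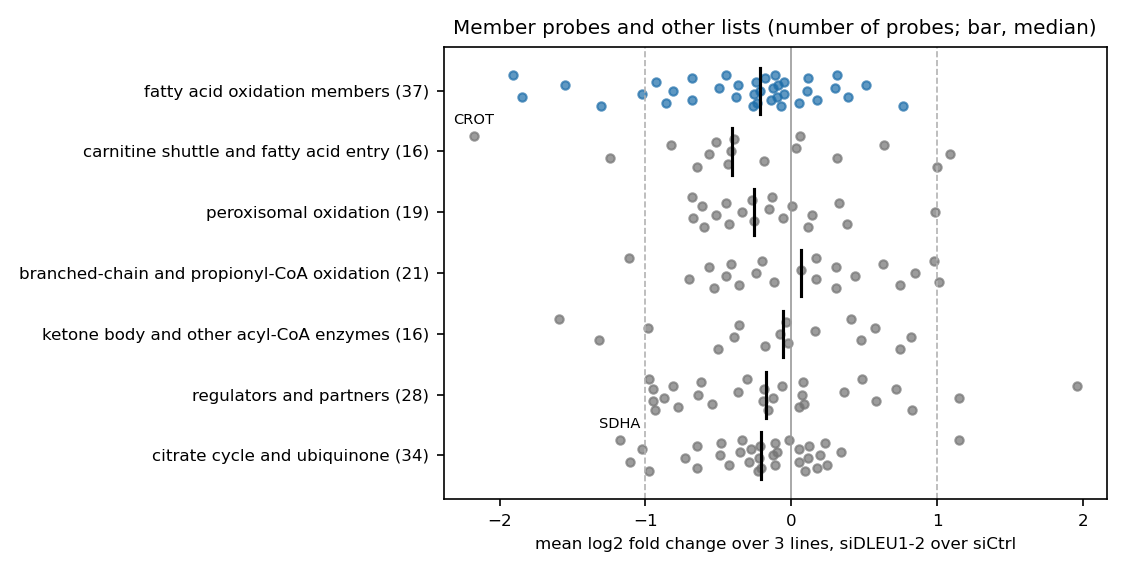
Mean log2 fold change of siDLEU1-2 over siCtrl across 3 lines (horizontal axis) of the 37 member probes and of the 134 probes in 6 further lists, 1 point per probe, with the number of probes in parentheses. Black bars are list medians, dashed lines mark 2-fold, and the lowest probes of CROT and SDHA are named. The CROT point uses signals below background in KON and Ca9-22. The list medians lie between -0.40 and 0.07, and the member list reaches -1.91 at HADHB.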

How the data were processed

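One-color Agilent arrays of 3 lines with siCtrl or siDLEU1-2 were read with Feature Extraction 10.7.3.1, and the authors deposited its spot intensity, background-subtracted and on a linear scale, with no normalization between arrays. A table of the whole series, also deposited, gives these intensities after rounding (largest difference 0.497%), uncentered and on the linear scale, with column medians of 12, 11.3, 14.9, 15.7, 15.4, and 15.6. Sample direction does not apply to 1-color signals.

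From these, log2 was taken, the 75th percentile of each array (200.5 to 257 in signal) was subtracted, outlier spots were left out, and spots of a probe were averaged. Of 50599 probes, 43.0% to 45.7% were well above background on an array, where at least 50% of its spots had to be. All arrays were on 1 slide. The number of arrays limits the precision.

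A limma model (3.58.1, R 4.3.3) held siRNA and cell line, with Benjamini-Hochberg adjustment and a threshold of 0.05. The code was also run on data simulated with normal noise of the fitted spread, which does not test the assumptions of the model. The line pairs the arrays, and deviations from the siRNA means correlated within pairs at 0.83, 0.81, and 0.82. Alternatives changed the scaling, background, filter, fold threshold, test, block, and lines. Named members were those over 2-fold in all lines or called, every probe of such genes, those with the seed match, and PPARA, PPARD, PPARGC1A, CPT1A, CPT2, and HADHA. Of other pathway genes, those over 2-fold and up to 10 others called were named. Members and lists were chosen with earlier results of these data known.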

Additional observations from a re-analysis of the deposited data

How the results depend on the processing

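The median of the members and the gap between seed-match and other members moved by less than the spread between lines under every alternative. Among members, limma's 1 higher call became 0 with centering on the median, quantile normalization, no filter, and the methods' t-test with or without adjustment, and 0 with any line left out. Its 5 lower calls became 0 with no filter or with the adjusted t-test, and 0 to 2 with a line left out. They became 9 with the stricter filter, where 5.94% of all probes were called lower. When the probes of a gene were averaged, 3 genes were called lower, and the 5 probes are of HADHB, ECI2, and ACAD9. In the paired design, dropping the replicate block left 0 lower and 0 higher member calls. The 4 probes over 2-fold lower became 2 at 3-fold (0.566% of all probes) and 6 at 1.5-fold (5.50%), where 1 was higher (5.35%). With averaged probes, 2 genes were over 2-fold lower, and the 4 probes are of HADHB, ECI2, and ACAD9. With a line left out, 6 to 11 members differed between lines in place of 20. The median of all probes moved by more than its spread between lines under the 3 other scalings (to -0.06, -0.02, and -0.02) and with no filter, to 0.14, so changes there are relative to it.

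Among the further genes, limma's 1 higher call became 0 with quantile normalization, no filter, or any line left out. It became 6 with normexp, 4 with the stricter filter (5.48% of all probes), and 3 with floored dim values. Calls in both directions over all probes rose too, from 1697 to 2308 with normexp, 2065 with the stricter filter, and 1941 with floored dim values. The 10 lower calls among the further genes became 0 with no filter or any line left out. Without the replicate block the further genes had 0 lower and 0 higher calls. The 2 probes over 2-fold lower became 1 with the percentile of detected probes, 0 with normexp, 1 with the stricter filter, and 3 to 6 with a line left out, and 0 to 3 were then higher. A slide block was not run, as all arrays were on 1 slide. Dim probes limit CROT, ACOT1, EHHADH, ACADL, and PPARGC1A.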
